A study of Rattus norvegicus with 3 samples.

Results

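The genes described here encode membrane and scaffold proteins of the contacts between brain endothelial cells. Of 7 genes named for the set (Cldn5, Ocln, Tjp1, Cdh5, Esam, Pecam1 and Jam2), 5 were found by their symbol among 30560 features. Cldn5 and Ocln were not matched to a feature and were not analysed here. The genes were chosen by name, and their raw counts of unique molecular identifiers (UMIs, which count RNA molecules) were read in 3 libraries of single brain nuclei, over all barcodes and within cell classes gated by other genes. All animals were wild-type female Crl:CD(SD) rats aged 12 weeks, and brains were taken 7 hours after a single intraperitoneal injection. The control group received saline, the second group received lipopolysaccharide (LPS, a component of the bacterial outer membrane) at 5 mg/kg, and the third received poly(I:C), a synthetic double-stranded RNA, at 12 mg/kg. Nuclei of 4 rats were pooled into 1 library per treatment, so differences between animals were not measured, no comparison has a replicate, and no test was run. Brackets give 95% intervals, and these hold counting error alone.

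The endothelium of brain vessels is sealed by tight junctions, in which claudins, occludin and junctional adhesion molecules join neighbouring cells and zonula occludens scaffolds tie them to actin. Adherens junctions are built on VE-cadherin, the product of Cdh5, which holds endothelial cells together and binds catenins inside the cell. Pecam1, Esam and Jam2 encode immunoglobulin-type adhesion proteins at the same contacts, where they also take part in the passage of leukocytes. These junctions are a main element of the blood-brain barrier, and inflammation outside the brain is known to act on them.

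The libraries held 11211 to 25435 barcodes and 21340578 to 35532360 UMIs, with medians of 1165 (saline), 2436 (LPS) and 1264 (poly(I:C)) UMIs per barcode. Pairs of libraries shared 247 to 550 barcode sequences, of which none was endothelial in both. A barcode was called endothelial when it held at least 3 different genes of 12 endothelial markers and more of them than of any other class's markers, and none of the junction genes was a marker. This gave 604 saline barcodes (2.37% [2.19 to 2.57]), 242 LPS barcodes (2.16% [1.90 to 2.44]) and 241 poly(I:C) barcodes (1.61% [1.41 to 1.82]), with medians of 967, 1095.5 and 786 UMIs. All 12 markers were detected in each library's endothelial barcodes, and their summed level was 6194, 5883 and 5135 CPM (a gene's UMIs per 1000000 UMIs of the same barcodes) after saline, LPS and poly(I:C). The markers themselves differed between libraries: within the gate 3 of 12 were lower and 1 was higher by 2-fold or more after LPS, and 3 were lower and 0 higher after poly(I:C). Other cells' RNA was present in the gate. All 9 mural markers were detected, with sums of 2512, 1892 and 2035 CPM, and 8 neuron markers summed to 12952, 13721 and 13049 CPM, which is 51.7%, 54.7% and 50.7% of their level in the whole library. Neutrophil markers summed to 2.54, 428 and 242 CPM (2, 7 and 9 of 10 detected, with Mpo at 0 in every library), and erythroid markers to 2314, 1326 and 1079 CPM (1 of 3 detected). Astrocyte, oligodendrocyte and oligodendrocyte precursor markers each summed to 97.6 to 253 CPM, and ependymal and choroid plexus markers to 10.2 to 45.3 CPM. Microglia or macrophage markers summed to 107, 197 and 178 CPM, with 11 or 12 of 12 detected, and fibroblast markers to 203, 147 and 242 CPM, with 9 or 10 of 10 detected. Ratios without barcodes that held mural markers, and with RNA subtracted down to 0 for the neuron markers, are given at the end. The part of the other RNAs in the results below was not tested.

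In endothelial barcodes the junction genes did not all differ in one direction. Cdh5 was higher after both stimuli, and higher after poly(I:C) than after LPS except at matched depth. Esam and Jam2 were moderately higher after both, Tjp1 was lower after both, and Pecam1 was lower after poly(I:C) but not after LPS. At matched depth the Tjp1 interval after LPS included 1. Those of Esam and Jam2 included 1 under some other gating or scaling, as given below. Of 5 genes, 1 was at least 2-fold higher after LPS, where 5.54% of all 8863 genes counted were, and 0 were at least 2-fold lower, against 6.78%. After poly(I:C) 1 of 5 was at least 2-fold higher, against 6.76% of 8346 genes, and 0 were at least 2-fold lower, against 13.2%. Between LPS and poly(I:C) 1 of 5 was at least 2-fold higher after LPS, against 6.69% of 6671 genes, and 0 were at least 2-fold lower, against 4.03%. These counts cover genes with at least 20 UMIs in the 2 libraries together, which all 5 had. The counts moved with the processing: 0 to 2 were at least 2-fold lower after poly(I:C) and 0 to 3 at least 2-fold higher after LPS. The share of all genes was not recomputed for those other gates and scalings, so these ranges have no share beside them. The median log2 ratio of the 5 genes was 0.84 for LPS over saline and 0.58 for poly(I:C) over saline, beside -0.04 and -0.16 over all genes. The saline library is shared by both comparisons. Directly between LPS and poly(I:C) the median was 0.30, beside 0.10 over all genes.

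**Figure D1:**
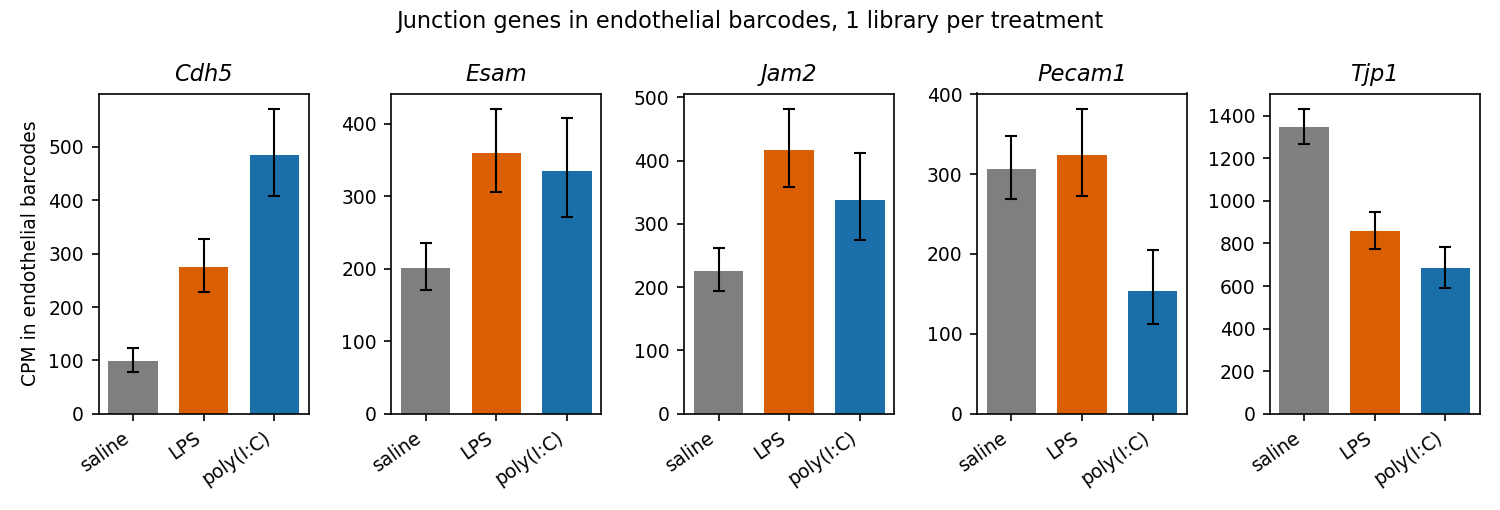
Level of each junction gene in endothelial barcodes (vertical axis, CPM, with its own scale per gene) in the library of each treatment; bars are 1 library each and whiskers are exact Poisson 95% intervals. Cdh5 stands at 98.9, 274 and 485 CPM in the order of the bars, while Tjp1 stands at 1349, 859 and 683 CPM.

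Cdh5 encodes VE-cadherin, the adhesion protein of endothelial adherens junctions. Its level in endothelial barcodes was 98.9 CPM (78 UMIs) after saline, 274 CPM (121 UMIs) after LPS and 485 CPM (142 UMIs) after poly(I:C). The 3 values stood in that order, and their Poisson intervals (78.2 to 123, 228 to 328 and 408 to 571 CPM) did not overlap. The ratio to saline was 2.77 [2.07 to 3.73] for LPS and 4.90 [3.69 to 6.55] for poly(I:C), and LPS stood at 0.566-fold [0.440 to 0.726] of poly(I:C). A UMI of Cdh5 was found in 11.4% of saline, 37.2% of LPS and 39.8% of poly(I:C) endothelial barcodes. After each barcode was thinned to 1000 UMIs, which kept 295, 134 and 96 of them and left out 309, 108 and 145 shallower ones, the shares were 7.12%, 28.4% and 25.0%, against 0.174%, 0.132% and 0.243% in excitatory neurons thinned alike. The share was therefore higher after both stimuli at matched depth. At that depth, with the gate applied to the thinned counts, the ratios to saline were 5.04 [2.96 to 8.86] and 5.63 [3.17 to 10.2], and LPS over poly(I:C) was 0.896 [0.565 to 1.43], so the difference between the stimuli was not detectable in those fewer barcodes. Per UMI of the 4 endothelial markers that differed least over all barcodes (Ptprb, Erg, Eng and Kdr), the LPS ratio was 1.78 [1.33 to 2.40]. Within the gate these 4 markers were themselves higher than after saline, at 1.31-fold to 2.06-fold after LPS and 1.30-fold to 1.55-fold after poly(I:C). Scaling to them therefore lowers every ratio to saline by construction.

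Over all barcodes, with no gate, Cdh5 had the same order. It stood at 3.74 CPM (133 UMIs) after saline, 6.05 CPM (180 UMIs) after LPS and 13.4 CPM (287 UMIs) after poly(I:C). The ratio was 1.62 [1.28 to 2.04] for LPS over saline, 3.59 [2.92 to 4.45] for poly(I:C) over saline and 0.450 [0.371 to 0.544] for LPS over poly(I:C). Without a gate, fewer endothelial nuclei and less RNA per nucleus cannot be told apart, and the 12 endothelial markers had median log2 ratios of -0.76 and -0.90 to saline over all barcodes, with 5 of 12 at least 2-fold lower in each comparison. Cdh5 was thus higher in whole libraries whose endothelial markers were lower at the median. Per endothelial marker UMI the Cdh5 ratios were 2.52 [2.0 to 3.18] and 5.65 [4.59 to 7.0]. The 12 markers summed to 191, 123 and 122 CPM over all barcodes after saline, LPS and poly(I:C). Scaling to them therefore raises the ratio of every gene to saline by construction. With thinned barcodes the Cdh5 ratios to saline were 2.33 [1.58 to 3.44] and 2.55 [1.77 to 3.72], and LPS over poly(I:C) was 0.912 [0.651 to 1.27]. This interval leaves out the full value of 0.450, so the ratio itself moved, and no higher Cdh5 after poly(I:C) than after LPS was detectable. Thinning kept 15285, 9310 and 10238 barcodes and left out 10150, 1901 and 4763 shallower ones after saline, LPS and poly(I:C). Depth and the set of barcodes thus changed together, and their parts in the shift were not tested. Over all barcodes 0 of 5 junction genes were at least 2-fold higher after LPS (2.5% of 16226 genes) and 0 lower (1.74%). After poly(I:C) 1 of 5, Cdh5, was at least 2-fold higher (2.24% of 15916 genes), and 1 of 5, Pecam1, was at least 2-fold lower (2.9%). Between the stimuli 1 of 5, again Cdh5, was at least 2-fold lower after LPS (1.45% of 15731 genes) and 0 were higher (2.61%).

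Pecam1 encodes PECAM-1 (CD31), an adhesion protein of the lateral endothelial border. In endothelial barcodes it was at 307 CPM (242 UMIs) after saline, 324 CPM (143 UMIs) after LPS and 154 CPM (45 UMIs) after poly(I:C). The saline and LPS libraries were alike within counting error, and poly(I:C) stood below both. The ratios were 1.06 [0.853 to 1.30] for LPS over saline, 0.501 [0.356 to 0.691] for poly(I:C) over saline and 2.11 [1.5 to 3.02] for LPS over poly(I:C). With thinned counts the poly(I:C) ratio was 0.223 [0.0704 to 0.542] and LPS over poly(I:C) was 6.47 [2.60 to 20.8], and with the gate reduced to the 4 markers above the poly(I:C) ratio was 0.323 [0.164 to 0.591]. Per UMI of those 4 markers the LPS ratio was 0.679 [0.548 to 0.838]. The share of endothelial barcodes with a Pecam1 UMI was 29.1%, 38.8% and 17.0%, and after thinning 21.4%, 26.9% and 9.38%. Over all barcodes Pecam1 was at 9.40, 6.55 and 3.94 CPM, lower after both stimuli, with ratios of 0.697 [0.581 to 0.834] and 0.419 [0.326 to 0.533] to saline. The LPS ratio over all barcodes turned to 1.04 with thinned counts and to 1.09 per endothelial marker UMI, so its direction over all barcodes depended on the scaling. With thinned barcodes LPS over poly(I:C) was 3.00 [1.89 to 4.91], against 1.66 [1.28 to 2.18] in full, and per endothelial marker UMI the poly(I:C) ratio was 0.659 [0.512 to 0.839].

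Cdh5 and Pecam1, both of the endothelial border, differed in opposite directions after poly(I:C), and their ratio to each other needs no scaling to the library. The pair was picked after its values were seen, from all 10 pairs of the 5 genes. In endothelial barcodes there were 0.322 Cdh5 UMIs per Pecam1 UMI after saline, 0.846 after LPS and 3.16 after poly(I:C). This ratio was 2.62-fold [1.82 to 3.79] higher after LPS and 9.74-fold [6.30 to 15.3] higher after poly(I:C) than after saline. Over all barcodes the same ratio was 0.398, 0.923 and 3.42, or 2.32-fold [1.72 to 3.12] and 8.55-fold [6.19 to 11.9] higher. The values with and without the gate lay within each other's intervals. The gated UMIs are part of those over all barcodes, so this likeness is not independent support.

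**Figure D2:**
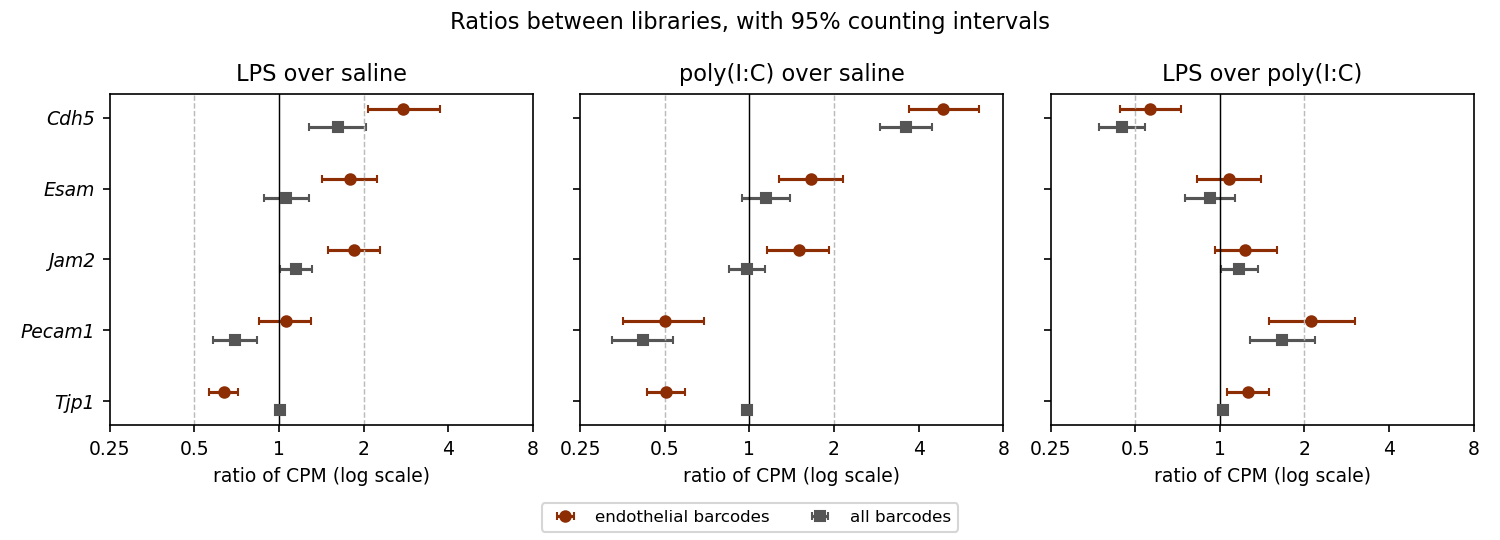
Ratio of CPM between 2 libraries (horizontal axis, log scale) for each junction gene in endothelial barcodes (circles) and over all barcodes (squares), with exact conditional 95% counting intervals; the solid line marks no difference and dashed lines mark 2-fold. Cdh5 lies above 1 against saline in both sets of barcodes, while Tjp1 lies below 1 in endothelial barcodes (0.637 and 0.506) and close to 1 over all barcodes (1.01 and 0.982).

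Esam encodes an endothelial adhesion molecule of the tight junction region that is also found on platelets. It was at 202 CPM (159 UMIs) after saline, 360 CPM (159 UMIs) after LPS and 335 CPM (98 UMIs) after poly(I:C). Both stimulated libraries stood above saline and their intervals (306 to 421 and 272 to 408 CPM) overlapped each other. The ratios were 1.79 [1.43 to 2.24] and 1.66 [1.28 to 2.15] to saline and 1.08 [0.832 to 1.40] for LPS over poly(I:C). With thinned counts the LPS ratio was at 2.68 [1.74 to 4.13], and per UMI of the 4 markers named above it was 1.15 [0.916 to 1.44], with 1.19 [0.916 to 1.54] for poly(I:C), and both intervals include 1. The share of endothelial barcodes with an Esam UMI was 23.2%, 43.4% and 30.7%, and after thinning 15.9%, 29.1% and 24.0%. Over all barcodes Esam was at 7.06, 7.49 and 8.11 CPM, with ratios of 1.06 [0.882 to 1.28] and 1.15 [0.94 to 1.40] to saline.

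Jam2 encodes JAM-B, a junctional adhesion molecule that binds Jam3 on opposing cells. It was at 226 CPM (178 UMIs) after saline, 417 CPM (184 UMIs) after LPS and 338 CPM (99 UMIs) after poly(I:C) in endothelial barcodes. Again both stimulated libraries were above saline, with overlapping intervals (359 to 482 and 275 to 411 CPM). The ratios were 1.85 [1.5 to 2.28] for LPS, 1.5 [1.16 to 1.93] for poly(I:C) and 1.23 [0.961 to 1.59] between them. The poly(I:C) ratio turned to 0.918 [0.483 to 1.62] when the gate used the odd-numbered markers alone. Per UMI of the 4 markers the ratios were 1.19 [0.961 to 1.47] and 1.07 [0.832 to 1.38], which include 1. LPS over poly(I:C) was 2.19 [1.28 to 3.93] with thinned counts and 2.50 [1.41 to 4.75] with the odd-numbered markers. The share of endothelial barcodes with a Jam2 UMI was 24.5%, 47.9% and 32.4%, and after thinning 18.0%, 35.1% and 20.8%. Over all barcodes, where only 35.5% to 40.3% of Jam2 UMIs fell in the gate, the values were 13.3, 15.4 and 13.1 CPM.

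Tjp1 encodes ZO-1, the scaffold that links tight junction proteins to actin, and is made by many cell types. In endothelial barcodes it was at 1349 CPM (1064 UMIs) after saline, 859 CPM (379 UMIs) after LPS and 683 CPM (200 UMIs) after poly(I:C). Saline was the highest library, and its interval (1269 to 1433 CPM) did not meet that of LPS (775 to 950 CPM) or poly(I:C) (591 to 784 CPM). The ratio to saline was 0.637 [0.565 to 0.716] after LPS and 0.506 [0.433 to 0.589] after poly(I:C), and 1.26 [1.06 to 1.5] for LPS over poly(I:C). The poly(I:C) value lies just inside the 2-fold limit and passed it in several alternatives, for example at 0.390 [0.321 to 0.471] once the library's own profile was subtracted in the amount that took the gate's neuron markers to 0. With thinned counts the LPS ratio was 0.812 [0.640 to 1.02], whose interval meets 1, and per UMI of the 4 markers it was 0.409 [0.363 to 0.461]. The share of endothelial barcodes with a Tjp1 UMI was 77.3%, 68.2% and 49.4%, and after thinning 66.8%, 50.7% and 43.8%.

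Neurons did not share the lower Tjp1 level. Excitatory neurons held 483, 502 and 504 CPM after saline, LPS and poly(I:C), inhibitory neurons 453, 472 and 458 CPM, and oligodendrocytes 559, 588 and 508 CPM. Only 6.02%, 2.53% and 1.92% of all Tjp1 UMIs came from endothelial barcodes, and over all barcodes the level was 498, 504 and 489 CPM. The endothelial level was 2.79-fold [2.62 to 2.98] that of excitatory neurons after saline, 1.71-fold [1.54 to 1.90] after LPS and 1.35-fold [1.17 to 1.56] after poly(I:C). Endothelial barcodes were thus still the highest class in all 3 libraries among classes of at least 50 barcodes, but after poly(I:C) their lead over the next class, astrocytes at 552 CPM, was within counting error (1.24-fold [0.908 to 1.71]). The lead was 2.41-fold [2.16 to 2.70] over oligodendrocytes after saline and 1.39-fold [1.20 to 1.6] over astrocytes after LPS.

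**Figure D3:**
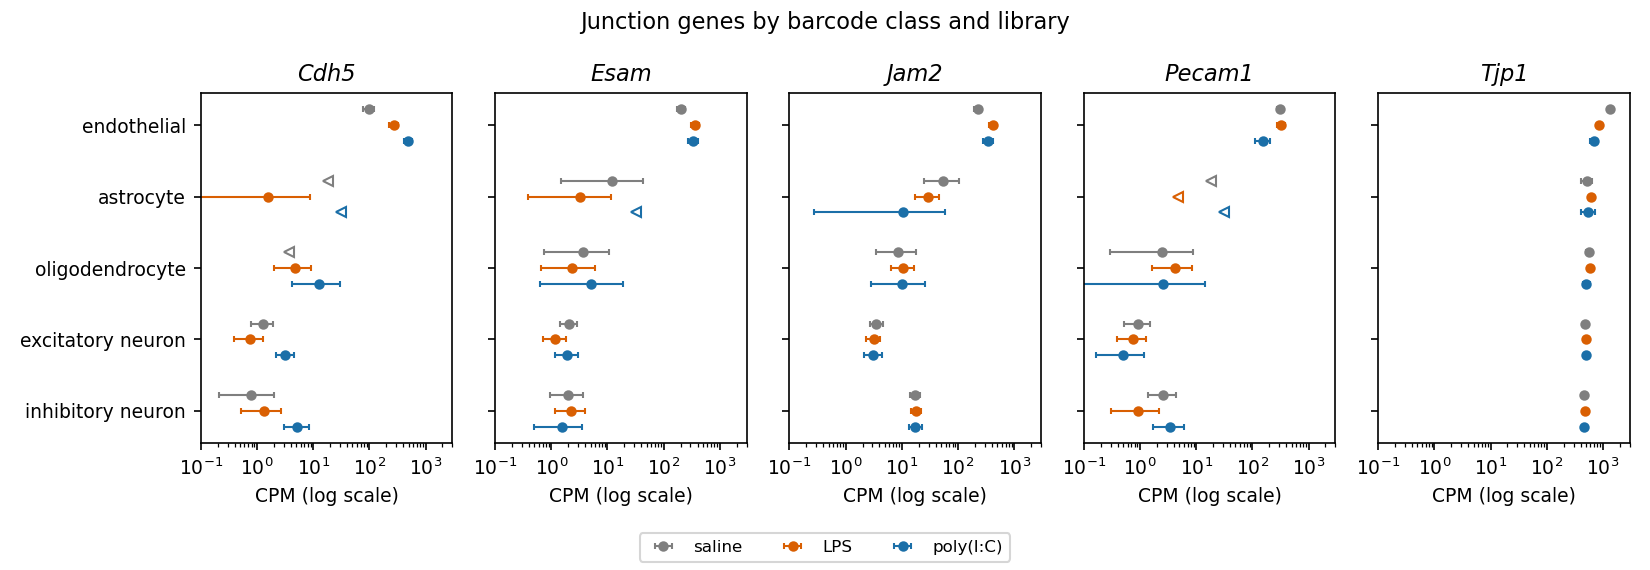
Level of each junction gene (horizontal axis, CPM, log scale) in 5 barcode classes and 3 libraries, with exact Poisson 95% intervals; open triangles mark a class with 0 UMIs, drawn at the level that 3 UMIs would give. Cdh5, Esam, Jam2 and Pecam1 lie highest in endothelial barcodes, while Tjp1 lies between 453 and 619 CPM in the other 4 classes.

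Among classes of at least 50 barcodes, the other 4 genes had their highest level in endothelial barcodes in every library. Of their UMIs, the gate held 58.6%, 67.2% and 49.5% for Cdh5, 63.3%, 71.3% and 56.6% for Esam, and 72.5%, 73.3% and 53.6% for Pecam1, in the order saline, LPS and poly(I:C). The endothelial level was 77.8-fold [47.6 to 133], 370-fold [204 to 736] and 152-fold [103 to 230] that of excitatory neurons for Cdh5. The lowest such ratio among these 4 genes was 64.3-fold [47.6 to 88.1], for Jam2 after saline. For each of the 4 genes in each library the endothelial class stood above the next class of at least 50 barcodes beyond counting error. Mural barcodes numbered 31, 18 and 29, under that minimum, and held 3, 6 and 16 Cdh5 UMIs, or 75.9, 198 and 489 [280 to 795] CPM after saline, LPS and poly(I:C), which could not be told apart from the endothelial levels. Mural Pecam1 was at 75.9 [15.6 to 222], 230 [92.7 to 475] and 184 [67.3 to 399] CPM, and overlapped the endothelial interval after LPS and poly(I:C) but not after saline. Mural Esam overlapped it after saline and LPS, and mural Jam2 after saline and poly(I:C). Mural Tjp1 was at 703 [446 to 1056] CPM after poly(I:C), which also overlapped the endothelial interval. Below the endothelial class, most neighbours in the order of classes with at least 50 barcodes could not be told apart.

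Neuron barcodes held few Cdh5 UMIs, at a level that was higher after poly(I:C). Excitatory neurons held 21, 12 and 32 Cdh5 UMIs after saline, LPS and poly(I:C) (1.27, 0.741 and 3.20 CPM), and inhibitory neurons 4, 7 and 17 (0.789, 1.31 and 5.21 CPM). The poly(I:C) ratio to saline was 2.52 [1.41 to 4.59] in excitatory neurons and 6.61 [2.15 to 27.0] in inhibitory neurons. In excitatory neurons there were 0.618 Cdh5 UMIs per Esam UMI after saline, 0.632 after LPS and 1.68 [0.926 to 3.14] after poly(I:C), beside 0.491, 0.761 and 1.45 [1.11 to 1.89] in endothelial barcodes. The intervals of the 2 classes overlapped in each library for this pair. Pecam1 per Esam was 0.441 [0.223 to 0.832] in excitatory neurons against 1.52 [1.24 to 1.87] in endothelial barcodes after saline, which do not overlap. It was 0.632 [0.280 to 1.37] against 0.899 [0.712 to 1.13] after LPS and 0.263 [0.0768 to 0.729] against 0.459 [0.315 to 0.660] after poly(I:C), which overlap. In inhibitory neurons Pecam1 per Esam was 1.3 [0.527 to 3.31], 0.417 [0.115 to 1.27] and 2.2 [0.705 to 8.08] after saline, LPS and poly(I:C). The poly(I:C) value, from 11 and 5 UMIs, did not overlap the endothelial one, and the others did. Cdh5 per Esam in inhibitory neurons was 0.4, 0.583 and 3.4 [1.20 to 11.8], and overlapped the endothelial value in each library. Barcodes that fell in no class held Cdh5 at 2.21, 4.39 and 9.92 CPM. Whether the Cdh5 UMIs of neuron barcodes came from the neurons or from RNA of other cells was not tested.

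Jam2 differed between the neuron classes. Inhibitory neurons held 17.4 [13.9 to 21.4], 18.1 [14.7 to 22.1] and 17.5 [13.2 to 22.6] CPM, and excitatory neurons 3.51 [2.66 to 4.54], 3.15 [2.34 to 4.14] and 3.10 [2.10 to 4.40] CPM, after saline, LPS and poly(I:C). The intervals of the 2 neuron classes did not meet in any library, and neither class differed by treatment beyond counting error. Astrocytes held Jam2 at 54.1 CPM (9 UMIs) after saline, 28.8 CPM (18 UMIs) after LPS and 10.6 CPM (1 UMI) after poly(I:C). Oligodendrocyte precursors, with at least 50 barcodes in 2 libraries, held 60.1 CPM (13 UMIs) after LPS and 17.6 CPM (1 UMI) after poly(I:C). For microglia or macrophages only the LPS library had at least 50 barcodes, and Pecam1 was at 13.7 [2.83 to 40.1] CPM there from 3 UMIs.

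Tjp1 and Jam2, which differed in opposite directions in endothelial barcodes, were also the measured members with an entry in the RefSeq promoter table (2 of 5), and the 250 bases before their annotated starts are shown so that the unlike base composition of the 2 can be seen. The Jam2 stretch lies at chr11:37317310-37317559 on the plus strand and the Tjp1 stretch at chr1:128325361-128325610 on the minus strand of GRCr8, which is a later build than the one the counts rest on. Capitals mark GGAA on either strand (TTCC on the strand shown), the core letters bound by ETS factors such as Erg, a regulator of endothelial genes.
Jam2: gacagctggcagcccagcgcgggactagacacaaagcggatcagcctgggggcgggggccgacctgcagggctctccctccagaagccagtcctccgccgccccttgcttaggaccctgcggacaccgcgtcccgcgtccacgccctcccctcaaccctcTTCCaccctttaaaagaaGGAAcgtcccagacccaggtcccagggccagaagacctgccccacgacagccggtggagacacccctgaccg
Tjp1: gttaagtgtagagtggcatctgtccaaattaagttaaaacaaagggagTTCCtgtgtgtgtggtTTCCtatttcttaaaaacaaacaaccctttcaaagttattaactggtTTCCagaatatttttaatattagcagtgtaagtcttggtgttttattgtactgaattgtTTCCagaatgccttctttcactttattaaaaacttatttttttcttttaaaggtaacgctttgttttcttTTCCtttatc
The Jam2 stretch was 68% G or C and the Tjp1 stretch 30.4%, beside a median of 51.2% over 33469 promoters of the same length. GGAA was found 2 times for Jam2 and 5 times for Tjp1 and in 93.2% of all promoters. GGGCGG, the GC box, was found 2 times for Jam2 and not for Tjp1, and in 30.5% of all promoters. GGG and CC with any 5 bases between them, a loose NF-kB pattern, was found 4 times for Jam2 (1 match overlaps a GGAA and 1 shares a base with a GC box) and not for Tjp1, and in 42.3% of all promoters. A pair of GAAA with any 2 bases between them, the core of interferon-stimulated response elements, was in neither and in 3.41% of all promoters. TTCNNNGAA, the STAT pattern, was in neither and in 7.67%, and CCAAT was in neither and in 34.0%. All motifs were searched on both strands, and a match of letters is not a binding site.

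The other genes of endothelial contacts were read from 5 lists with 65 genes, of which 62 were matched and 50 had at least 20 UMIs against saline. In endothelial barcodes 10 of 50 were lower and 3 higher by 2-fold or more after LPS, beside 6.78% and 5.54% of all genes. After poly(I:C) 13 of 50 were at least 2-fold lower and 3 higher, beside 13.2% and 6.76%. Of 42 genes measured between the stimuli, 5 were at least 2-fold higher after LPS than after poly(I:C) and 0 lower by as much, beside 6.69% and 4.03% of all genes. The lists were chosen with earlier results of these libraries known. As a check of the response, 8 vascular response genes were read. Cxcl10, Cxcl11, Cxcl9, Lcn2, Ifitm3 and Vcam1 were at least 2-fold higher in endothelial barcodes after both stimuli. Sele had 0, 21 and 0 UMIs and Icam1 had 3, 16 and 5 after saline, LPS and poly(I:C).

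Among 4 measured tight junction membrane genes besides the members, 1 was at least 2-fold lower after LPS and 3 after poly(I:C), and 0 were higher, with median log2 ratios of -0.50 and -1.55. Marveld2, which encodes tricellulin of tricellular contacts, was at 208, 27.2 and 20.5 CPM (164, 12 and 6 UMIs) after saline, LPS and poly(I:C). Its ratio to saline was 0.131 [0.0662 to 0.235] and 0.0985 [0.0356 to 0.219], the lowest of the list in both. F11r, which encodes the Jam2 relative JAM-A, was at 45.6, 52.1 and 13.7 CPM, lower after poly(I:C) alone (0.299 [0.0774 to 0.835]) and 3.82-fold [1.30 to 15.2] higher after LPS than after poly(I:C). Lsr, a protein of tricellular contacts, was at 0.777-fold [0.489 to 1.21] after LPS and 0.390-fold [0.179 to 0.762] after poly(I:C). Jam3, the partner of Jam2, was at 73.5, 47.6 and 61.5 CPM, with intervals of both ratios that include 1.

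Of 10 measured tight junction scaffold genes, 0 passed 2-fold after LPS and 1 was at least 2-fold lower after poly(I:C), with medians of -0.04 and 0.08. That 1 was Cgnl1, which encodes paracingulin, at 216, 154 and 68.3 CPM (0.317-fold [0.189 to 0.505] after poly(I:C), and 2.26-fold [1.35 to 3.92] higher after LPS than after poly(I:C)). Cgnl1 was at 0.715-fold [0.531 to 0.952] after LPS, and Magi1 at 0.797-fold [0.649 to 0.976] after LPS and 0.971-fold [0.777 to 1.21] after poly(I:C). Magi3 was at 1.08-fold [0.879 to 1.32] and 1.31-fold [1.05 to 1.62], and Pard3 at 1.36-fold [1.09 to 1.69] and 1.20-fold [0.922 to 1.55].

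Of 12 adherens junction and catenin genes, 2 were at least 2-fold lower after LPS and 0 higher, and 1 was lower and 1 higher after poly(I:C), with medians of 0.01 and -0.14. Of the catenins of VE-cadherin junctions, 3 did not stand apart between libraries as Cdh5 did, and plakoglobin was lower after poly(I:C). Ctnnb1, beta-catenin, was at 142, 138 and 157 CPM, Ctnna1, alpha-catenin, at 207, 215 and 273 CPM, and Ctnnd1, p120-catenin, at 178, 134 and 123 CPM, and the intervals of all their ratios to saline included 1. After poly(I:C) Ctnna1 was at 1.32-fold [0.998 to 1.74] and Ctnnd1 at 0.692-fold [0.466 to 1.005], which include 1 narrowly. Jup, plakoglobin, had 26, 6 and 1 UMIs, with 0.412-fold [0.139 to 1.02] after LPS and 0.104-fold [0.00253 to 0.630] after poly(I:C). Plekha7 was at 0.426-fold [0.190 to 0.862] after LPS and 0.513-fold [0.208 to 1.11] after poly(I:C). Nectin2, an adhesion molecule of adherens junctions, was at 1.67-fold [0.746 to 3.71] after LPS and 2.87-fold [1.33 to 6.24] after poly(I:C).

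**Figure D4:**
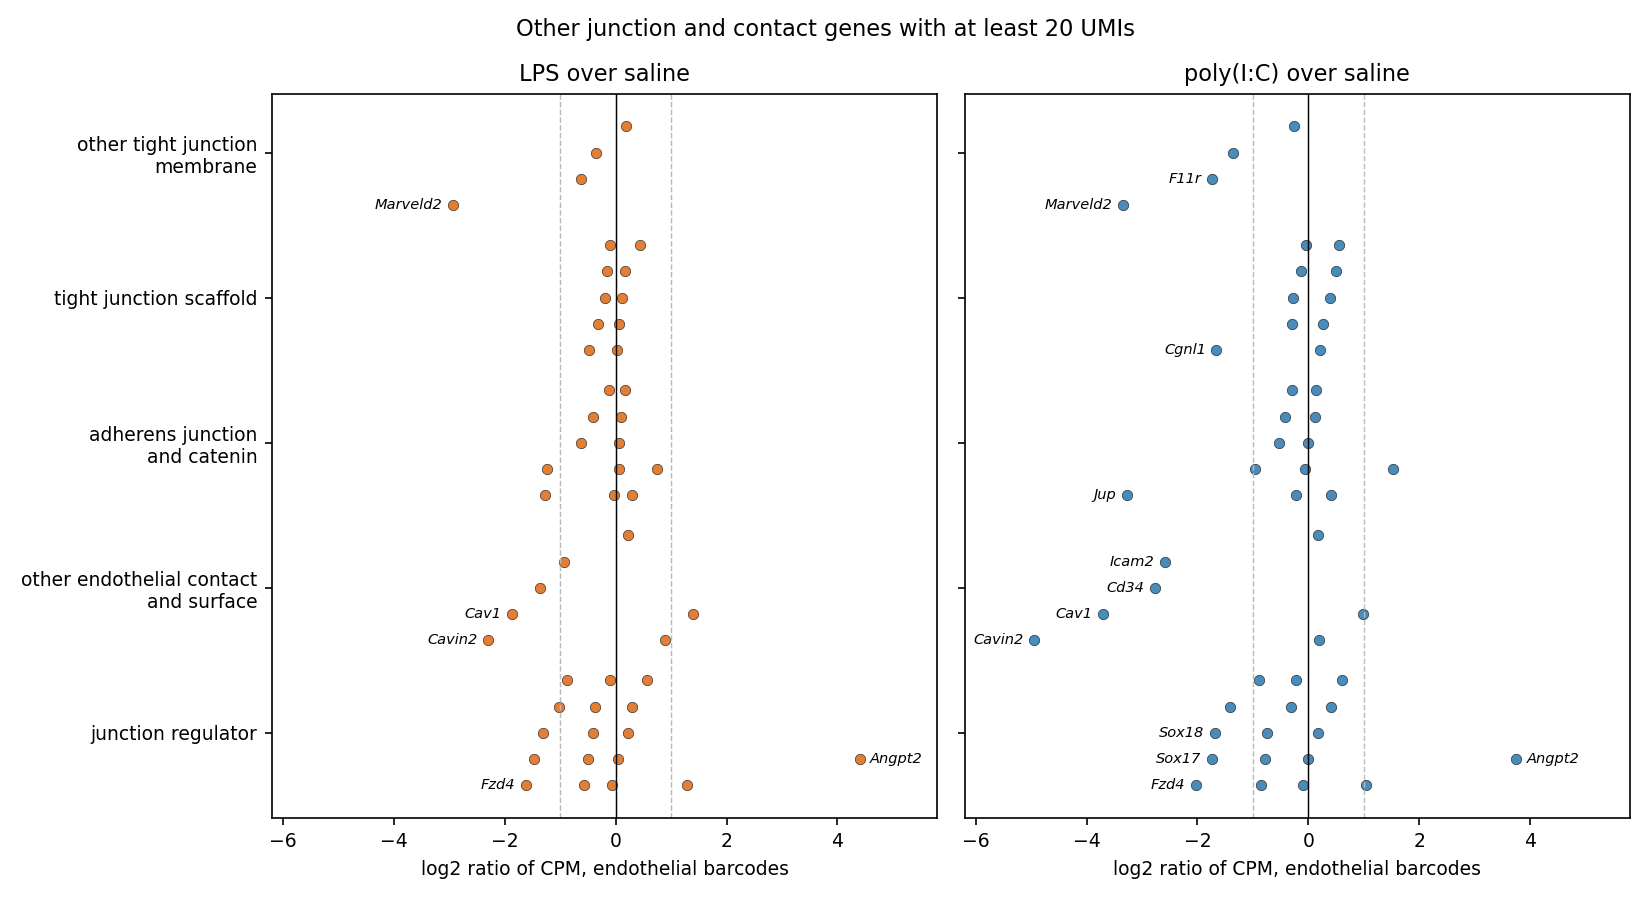
Log2 ratio of CPM to saline in endothelial barcodes (horizontal axis) for 50 other junction and contact genes with at least 20 UMIs, in 5 lists (rows); each point is 1 gene, heights within a row only separate points, dashed lines mark 2-fold, and genes beyond 1.6 on the log2 scale are named. Marveld2, Cavin2 and Cav1 lie far to the left after both stimuli, Angpt2 lies far to the right, and the scaffold genes lie near 0 except Cgnl1 after poly(I:C).

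Among 7 other contact and surface genes, 3 were at least 2-fold lower and 1 higher after LPS, and 4 lower and 0 higher after poly(I:C), with medians of -0.94 and -2.59. The caveolar genes led the list. Cavin2 was at 212, 43.1 and 6.83 CPM (167, 19 and 2 UMIs) and Cav1, which encodes caveolin-1, at 133, 36.3 and 10.2 CPM (105, 16 and 3 UMIs). Cavin2 stood at 0.203-fold [0.119 to 0.328] and 0.0322-fold [0.00387 to 0.118] of saline, and Cav1 at 0.272-fold [0.150 to 0.463] and 0.0769-fold [0.0156 to 0.231]. Cd34, a surface sialomucin, was at 0.390-fold [0.190 to 0.737] and 0.147-fold [0.0294 to 0.452]. Icam2, an adhesion molecule of resting endothelium, was at 0.522-fold [0.296 to 0.882] after LPS and 0.166-fold [0.0438 to 0.445] after poly(I:C), and 3.15-fold [1.05 to 12.7] higher after LPS than after poly(I:C). Gja4, the gap junction protein connexin 37, was 2.62-fold [1.30 to 5.43] higher after LPS and at 1.97-fold [0.820 to 4.60] after poly(I:C). LPS over poly(I:C) was 1.33 [0.617 to 3.03] for Gja4, so the stimuli could not be told apart.

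Of 17 regulators of junctions, 4 were at least 2-fold lower and 2 higher after each stimulus, with medians of -0.38 and -0.30. Angpt2, angiopoietin 2, which loosens contacts by opposing Tek signalling, was at 13.9, 295 and 188 CPM (11, 130 and 55 UMIs). It stood 21.1-fold [11.4 to 43.4] and 13.5-fold [6.97 to 28.5] above saline, the largest ratio of all 5 lists after either stimulus. S1pr1, a sphingosine 1-phosphate receptor that stabilises junctions, was 2.44-fold [1.83 to 3.27] and 2.06-fold [1.47 to 2.88] higher. The Wnt receptor Fzd4 (22, 4 and 2 UMIs), its co-activator Adgra2 (50, 10 and 7 UMIs) and the transcription factor Sox18 (0.490-fold and 0.310-fold) were at least 2-fold lower after both. Heg1, a receptor that acts with the Krit1 complex at junctions, was at 0.402-fold [0.302 to 0.528] after LPS and 0.540-fold [0.400 to 0.719] after poly(I:C), and Sox17 at 0.704-fold [0.473 to 1.03] and 0.299-fold [0.145 to 0.559]. Jup, Plekha7 and Sox18 after LPS, and Lsr, Cgnl1, Nectin2, Sox18, Adgra2 and S1pr1 after poly(I:C), stood outside the 10 largest differences and, like genes within 2-fold, were named after their values were seen.

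Across 21 combinations of class and library with at least 50 barcodes, the genes whose log2(CPM + 10) followed each member most closely were found by Pearson's r, as a description over points that share libraries. Outside the endothelial class, Cdh5, Esam and Pecam1 stood at 21.1 CPM or less in all of these combinations. A high r with them therefore marks mainly a high level in endothelial barcodes, and says little of differences between treatments. For Cdh5 these were Fam110d (0.98), Hspb1 (0.98) and Apold1 (0.98), and for Esam Gimap5 (0.99), Klf2 (0.98) and Ifitm2 (0.97). For Pecam1 they were H3f3a, Fn1 and Tinagl1 (each 0.98), and for Jam2 Dram1, Actb and Elob (each 0.93). Tjp1 was followed by Cavin2, AC120594.1 and Tnfsf12 (each 0.90), the first of which is the caveolar gene described above. Among the members Cdh5 and Esam were closest to each other (0.96), and Tjp1 stood furthest from Cdh5 (0.68).

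**Figure D5:**
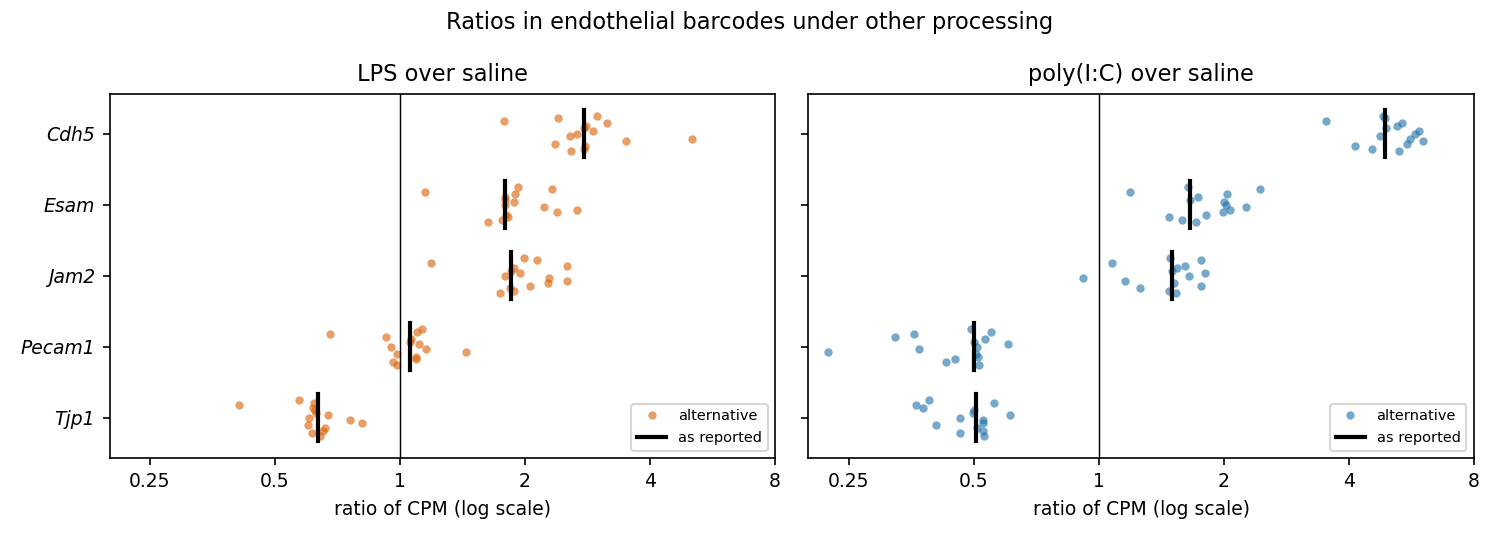
Ratio to saline in endothelial barcodes (horizontal axis, log scale) for each junction gene as reported (black bars) and under 15 other ways of gating, filtering or scaling (points, with heights that only separate them). All points of Cdh5 lie above 1 and all points of Tjp1 below 1 after both stimuli, while the LPS points of Pecam1 lie on both sides, from 0.679 to 1.44.

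Under 15 other ways of gating, filtering or scaling, the Cdh5 ratio to saline in endothelial barcodes stayed above 1 in each, at 1.78 to 5.04 after LPS and 3.52 to 6.05 after poly(I:C). Tjp1 stayed below 1 in each, at 0.409 to 0.812 and 0.363 to 0.611. Without barcodes with 2 or more mural markers, Cdh5 stood at 2.40-fold and 4.88-fold and Tjp1 at 0.622-fold and 0.559-fold of saline after LPS and poly(I:C). With RNA subtracted in the amount that took the gate's neuron markers to 0, Cdh5 stood at 2.98-fold and 4.83-fold and Tjp1 at 0.570-fold and 0.390-fold. Esam stayed above 1, at 1.15 to 2.68 and 1.19 to 2.44. Jam2 stayed above 1 after LPS, at 1.19 to 2.53, and in 14 of 15 after poly(I:C), at 0.918 to 1.81. Pecam1 stayed below 1 after poly(I:C), at 0.223 to 0.604, and after LPS it was above 1 in 9 and below 1 in 6.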

How the data were processed

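Single brain nuclei of 3 pooled rat libraries were measured with 10x Genomics 5' v2 chemistry, per the labels. The values deposited are raw UMI counts in a matrix of features by barcodes; per the submitters' processing notes they were made with Cell Ranger 7.0.0 on mRatBN7.2, and the annotation release and cell-calling settings are not given in the sources used here. Counting of nuclear RNA includes unspliced transcripts, so long genes gain counts, and levels are compared between libraries rather than between genes. All barcodes were used and no doublet caller was run; alternatives without barcodes of 2 classes and without barcodes above the 99th percentile of UMIs stand in its place.

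Endothelial barcodes needed at least 3 different markers of 12 matched (13 named) and more than of any of 8 other non-neuronal classes, with ties left out. Neurons needed at least 3 neuron markers and fewer than 3 of each other class. The gate is not the clustering of other analyses of these files, and class values may differ from those. UMIs were summed per class and library. CPM levels carry exact Poisson intervals, shares exact Clopper-Pearson intervals and ratios exact conditional (Clopper-Pearson) intervals, all at 95%. Medians and 2-fold counts use genes with at least 20 UMIs in the 2 libraries together. Coverage of the ratio intervals was tested on simulated Poisson counts alone. Such counts follow the model that the intervals assume and hold no differences between nuclei or animals. Python 3.11.15, numpy 2.4.6, scipy 1.17.1, pandas 2.3.3 and matplotlib 3.10.9 were used.

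Symbols came from the feature tables (28370 names), where 112 of 116 class markers were matched. The named partner genes are those at least 2-fold apart, at most 10 per comparison by size, and the 3 genes most correlated with each member were taken among genes with at least 100 UMIs. Features with only an Ensembl identifier were left out of that ranking, which departs from the rule as first written. Members, lists, rules and alternatives were chosen with earlier results of these data known. There were 14 alternatives chosen at the outset and 4 added after seeing the values: gating by, or scaling to, Ptprb, Erg, Eng and Kdr (within 1.5-fold of saline over all barcodes), leaving out barcodes with at least 2 mural markers, and subtracting free RNA at the level of the neuron markers. Promoter sequences are from RefSeq on GRCr8.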

Additional observations from a re-analysis of the deposited data

How the results depend on the processing

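No paired analysis was possible because each treatment has 1 library, and leaving out a replicate was not possible for the same reason. Depth limits the values: 45 to 242 Pecam1 UMIs and 78 to 142 Cdh5 UMIs carry the endothelial ratios, and intervals leave out the differences between animals and between preparations. All medians below are log2 ratios of the 5 genes and all counts are out of 5. The shares of all genes past 2-fold were recomputed only for other minimum UMIs per gene. Counts under other gates, filters or scalings therefore stand without such a share, and describe the processing rather than the 5 genes. The cause of each shift was not tested beyond what an alternative's construction shows (fewer barcodes, other scaling).

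The share of barcodes called endothelial (saline, LPS, poly(I:C)) depends on the gate by construction. It was 2.91%, 2.53% and 2.11% with at least 2 markers, 1.88%, 1.77% and 1.12% with at least 4, 1.27%, 0.874% and 0.433% with the odd-numbered and 1.69%, 1.70% and 1.35% with the even-numbered markers. It was 1.34%, 0.999% and 0.576% with thinned counts, 1.09%, 1.23% and 0.860% without Syt1-positive barcodes, 1.86%, 1.59% and 1.31% without barcodes of 2 classes, 0.535%, 1.02% and 0.667% with the gate by Ptprb, Erg, Eng and Kdr, and 1.25%, 1.12% and 0.967% without barcodes with 2 or more mural markers. With at least 500 genes per barcode the poly(I:C) share was 1.24%. The order of saline above LPS turned with 3 of these gates.

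In endothelial barcodes, the LPS median moved to 1.34 with thinned counts, 1.18 without Syt1-positive barcodes and 0.20 per UMI of Ptprb, Erg, Eng and Kdr. The poly(I:C) median moved to 0.21 with thinned counts and 0.10 per UMI of those 4 markers, and turned to -0.12 with the odd-numbered markers, where Jam2 turned to 0.918. LPS over poly(I:C) moved to 0.62 with thinned counts and 0.65 with the gate by the 4 markers. Genes at least 2-fold higher after LPS numbered 3 with thinned counts, with the odd-numbered markers, without Syt1-positive barcodes and without mural barcodes, 2 with the gate by the 4 markers and without barcodes of 2 classes, and 0 per UMI of the 4 markers, where 1 was lower. After poly(I:C) 2 were higher with thinned counts, odd-numbered markers, even-numbered markers, the gate by the 4 markers, scaling per endothelial marker UMI, and without mural barcodes. Those at least 2-fold lower after poly(I:C) numbered 1 with 5% free RNA subtracted, at least 500 genes, odd-numbered markers, even-numbered markers, thinned counts and without Syt1-positive barcodes, and 2 with at least 4 markers, neuron-level free RNA subtracted, the gate by the 4 markers and scaling to them. Between the stimuli, 2 were higher after LPS with thinned counts and odd-numbered markers, and 0 with at least 2 markers, even-numbered markers, scaling per UMI of the 4 markers or per endothelial marker UMI, without Syt1-positive barcodes and without mural barcodes. 1 was lower with at least 2 markers, even-numbered markers, scaling per endothelial marker UMI, without barcodes of 2 classes and without mural barcodes.

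Over all barcodes, the LPS median moved to 0.52 with thinned counts and 0.73 per endothelial marker UMI, each with 1 gene at least 2-fold higher, and Pecam1 turned to 1.04 and 1.09. The poly(I:C) median moved to -0.24 with thinned counts, -0.15 with at least 500 genes, -0.10 per UMI of the 4 markers and 0.63 per endothelial marker UMI, where 0 genes were at least 2-fold lower. LPS over poly(I:C) moved to 0.76 with thinned counts (2 higher, 0 lower) and 0.22 with at least 500 genes (1 higher, 0 lower). Other minimum UMIs per gene and leaving out the deepest barcodes changed no count or median of the 5 genes beyond these limits, but the minimum moved the shares of all genes past 2-fold, for example to 12.5% higher after poly(I:C) in endothelial barcodes with no minimum.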
